A study of Mus musculus with 18 samples.

Results

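The NRF2 antioxidant and glutathione genes are 10 genes chosen by name: Nfe2l2, which encodes NRF2, and 9 genes of the response it is known for, namely Nqo1, Hmox1, Gclc, Gclm, Srxn1, Txnrd1, Gstm1, Gsta3 and Gpx3. All 10 were found among the 30072 genes of the deposited tables. NRF2 is a transcription factor that the adaptor KEAP1 keeps at low abundance by marking it for destruction. Under oxidants or electrophiles NRF2 escapes this control, pairs with a small MAF protein and binds antioxidant response elements, and the known targets make and spend glutathione, reduce thioredoxin, detoxify quinones and break down heme. Ionizing radiation produces reactive oxygen species within moments in tissue, and the comparisons asked how these genes stood weeks after the dose, in a heart whose cells rely on mitochondrial respiration.

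Hearts of 18 mice of the CD-1 strain were sequenced mouse by mouse, with 6 mice per group. CD-1 is an outbred strain, the labels name no altered allele in any group, and adult mice of both sexes were used with littermates as controls. Control mice were anesthetized with isoflurane and imaged by cone-beam computed tomography, and got no therapeutic dose (sham). The other groups had the same anesthesia and imaging and a single 25 Gy dose, and were sampled 2 weeks or 6 weeks later (post-IR). The labels name the septum as the tissue and gamma rays as the radiation, whereas the study's methods describe ventricular tissue and X-rays given to the whole heart of an intact adult animal. The labels give no sex for single mice and no time between sham treatment and sampling for controls. Time after the dose therefore cannot be told apart from age or time of collection. Replicate numbers below are those of the labels.

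Estimated counts summed to between 11522987 and 15501019 per mouse, where 3 counts correspond to between 0.194 and 0.26 CPM (a count relative to the total of its library). Cardiomyocyte markers were abundant in every library (summed CPM of 8 markers from 81539 to 108787 in controls and from 73613 to 82034 at 6 weeks). The libraries differed in composition: the median share of counts from genes of the mitochondrial genome was 23.2% for control mice, 20.2% for 2-week mice and 17.4% for 6-week mice, and the scaling factors of the trimmed mean of M-values (TMM) ran from 0.844 to 0.991 in controls and from 1.04 to 1.13 at 6 weeks. Control replicate 4 and replicate 5 of the 2-week group stood apart in markers of other cells, and their values are given beside the genes they touch.

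Levels below are TMM-normalized CPM, which compare a gene between mice, and differences are log2 fold changes with a standard error (SE) from edgeR's quasi-likelihood test on counts, with P adjusted by the Benjamini-Hochberg method over the 15054 genes tested. A gene passed the test at an adjusted P under 0.05. All 10 genes were above the filter on low counts. In bulk tissue, fewer cells of a type and less RNA per cell cannot be told apart.

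At 2 weeks post-IR, Hmox1 rose and Gstm1 fell (the call of Gstm1 held with TMM scaling and not by library size or with TPM), and the other 8 genes did not pass the test. Thus 1 of 10 was higher, against 3.09% of all genes tested, and 1 of 10 was lower, against 1.93%. At 6 weeks the same pair passed, with 1 of 10 higher (13.5% of all genes) and 1 of 10 lower (11.5%). Between 2 and 6 weeks Hmox1 alone passed, as higher at 6 weeks (3.31% of all genes were higher and 2.01% lower). As the median of the 10 genes, the log2 fold change was −0.16 for the 2-week mice and 0.06 for the 6-week mice against controls, and 0.21 for 6-week against 2-week mice, and over all genes it lay between −0.02 and 0.00 in each comparison. The study also asked for an absolute log2 fold change above 1. Under that rule Hmox1 at 6 weeks was the single member to pass (5.95% of all genes passed in this comparison, 0.903% at 2 weeks and 1.14% between the time points). Groups did not overlap for Gstm1 at 2 weeks, for Hmox1 and Gstm1 at 6 weeks, and for Hmox1 between the time points. Over all genes, groups did not overlap for 3.24%, 9.23% and 3.54% in the same order of comparisons. With 1 call in each direction, the 10 genes stood near the background at 6 weeks.

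**Figure D1:**
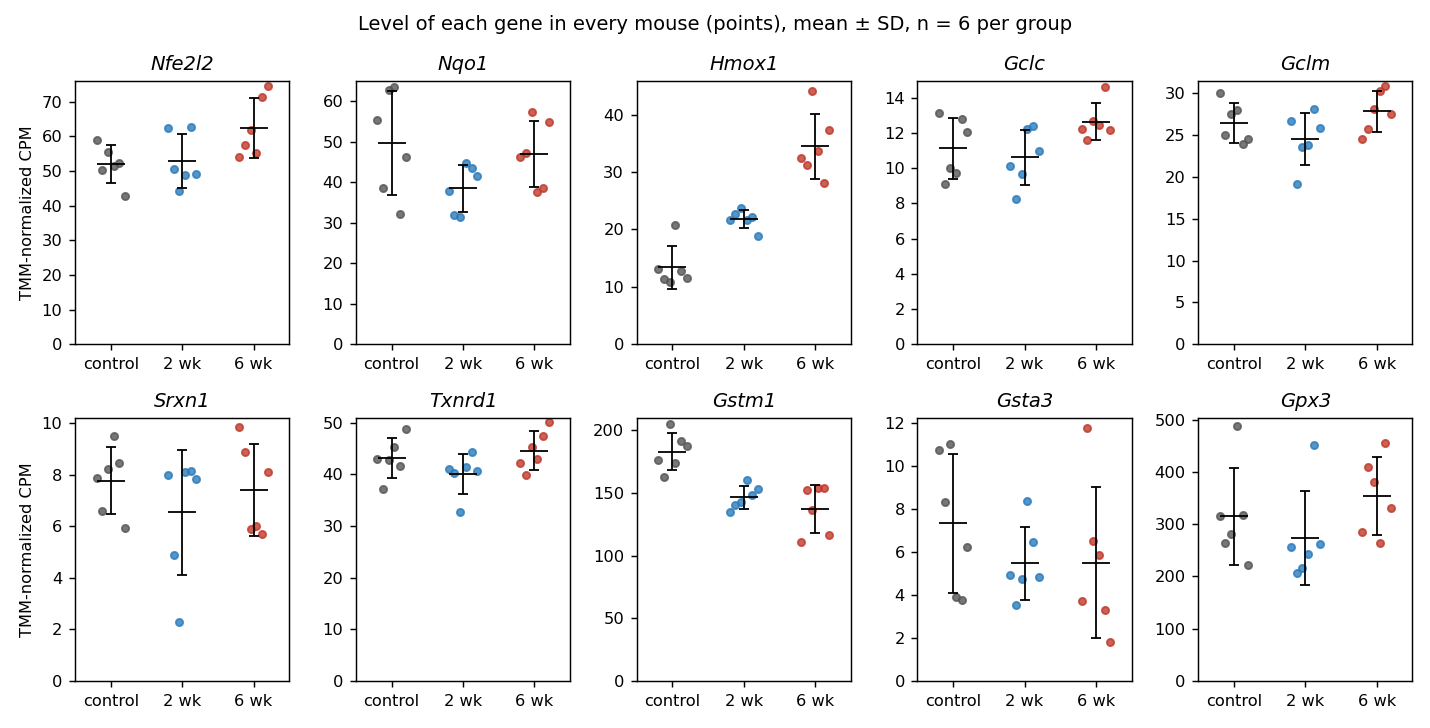
TMM-normalized CPM of each of the 10 genes in every mouse (points), with the mean and SD of each group of 6 mice (horizontal line and bars), on a separate vertical axis from 0 for each gene. Hmox1 rose from between 10.9 and 20.7 CPM in controls to between 28.1 and 44.1 at 6 weeks, all Gstm1 values post-IR lay below all controls on this scale, and the groups of the other 8 genes overlapped.

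NRF2 and its MAF partners are known to bind the antioxidant response element, whose core is TGACNNNGC, and promoter stretches with these letters are shown because the element links the regulator to the genes listed with it. RefSeq promoter windows (GRCm38.p6, from 250 bases before to 50 bases after the start site) were matched for 8 of the 10 genes, with 11 start sites, and were searched on both strands for TGACNNNGC and for the related TGANTCAGC. Of the 8 genes, 5 held TGACNNNGC. A stretch can match both motifs where the free base of TGANTCAGC is C. Over all 27025 genes with a window, 14.0% held TGACNNNGC in at least 1 of them. By window, 5 of the 11 held it, against 12.4% of 32851 promoter windows, and TGANTCAGC was present in 1.19% of those. Capitals mark the match as read on the gene's strand, so that a match on the opposite strand appears as its reverse complement.
Nfe2l2, chr2:75704869-75704913, minus strand: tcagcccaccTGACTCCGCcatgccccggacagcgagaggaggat
Gclm, chr3:122245397-122245457, plus strand: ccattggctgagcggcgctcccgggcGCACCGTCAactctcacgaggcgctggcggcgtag
Srxn1, chr2:152105453-152105513, plus strand: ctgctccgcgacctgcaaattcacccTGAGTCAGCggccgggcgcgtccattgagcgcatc
Txnrd1, chr10:82859088-82859148, plus strand: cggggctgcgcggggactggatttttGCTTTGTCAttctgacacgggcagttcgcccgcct
Gsta3, chr1:21240438-21240498, plus strand: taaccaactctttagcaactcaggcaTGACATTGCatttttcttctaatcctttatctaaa
The capitals stand 240 bases before the start in Nfe2l2, 134 in Gclm, 45 in Srxn1, 92 in Txnrd1 (before the second of its listed start sites) and 121 in Gsta3. The stretch of Srxn1 matches TGANTCAGC, and a TGACNNNGC match lies 29 bases after its start, on the opposite strand. The windows of Nqo1, Gstm1 and Gpx3 hold neither set of letters, and Hmox1 and Gclc are not shown. A match is a description of letters in a window, and letters outside these windows were not searched. With TMM scaling of all mice, none of the 5 genes with a printed stretch passed the test in any comparison. By library size and with TPM, Nfe2l2, Gclm and Txnrd1 passed as higher at the later time point against controls, and Srxn1 and Gsta3 did not pass. Under those scalings much of the transcriptome was also higher, as given below.

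Nfe2l2 (ENSMUSG00000015839, chromosome 2, 75675513 to 75704641, minus strand of GRCm38) encodes NRF2, whose amount is known to be set largely after translation, so that its mRNA is not a measure of its activity. Its lowest, median and highest CPM were 42.9, 52.0 and 58.9 in control mice, 44.2, 49.9 and 62.9 in 2-week mice, and 54.1, 59.6 and 74.4 in 6-week mice. The 6-week mice reached the highest values, and the groups overlapped. The log2 fold change was 0.03 at 2 weeks (adjusted P = 0.913, SE 0.104, 95% interval −0.17 to 0.23). It was 0.26 at 6 weeks (adjusted P = 0.0728, SE 0.103, 95% interval 0.06 to 0.46), which did not pass. Without control replicate 1 it was 0.30 and passed (edgeR adjusted P = 0.0498).

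Hmox1 (ENSMUSG00000005413, chromosome 8, 75093621 to 75100589, plus strand) encodes heme oxygenase 1, the inducible enzyme that opens heme into biliverdin, iron and carbon monoxide. Its lowest, median and highest CPM were 10.9, 12.1 and 20.7 in control mice, 18.9, 21.9 and 23.7 in 2-week mice, and 28.1, 33.0 and 44.1 in 6-week mice. The group means were 13.4 ± 3.70, 21.8 ± 1.61 and 34.5 ± 5.62 CPM (SD, n = 6). At 2 weeks, 5 of 6 mice lay above every control, and at 6 weeks all 6 lay above every control and every 2-week mouse. Hmox1 thus rose in steps over the 3 groups. The log2 fold change was 0.69 at 2 weeks (adjusted P = 0.00854, SE 0.140), 1.36 at 6 weeks (adjusted P = 2.83e-06, SE 0.139), which is 2.56-fold, and 0.66 from 2 to 6 weeks (adjusted P = 0.0111, SE 0.134).

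The control mouse with 20.7 CPM of Hmox1 was replicate 4, and the next control had 13.1. Without it the log2 fold change was 0.86 at 2 weeks (adjusted P = 0.000148) and 1.53 at 6 weeks (adjusted P = 4.61e-08). Tissue macrophages are a known site of Hmox1 expression, and macrophage markers moved with it. Of 8 macrophage markers, 1 rose at 2 weeks (C1qa), and at 6 weeks 7 rose and Cd163, a receptor through which macrophages take up hemoglobin, fell (log2 fold change −0.98, SE 0.261, adjusted P = 0.00977). Each of the 8 was above 0 in every mouse. Their summed CPM ran from 180 to 524 in controls (median 262), from 330 to 416 at 2 weeks (median 373) and from 439 to 592 at 6 weeks (median 488). The control with 524 was again replicate 4, and the other controls lay between 180 and 284.

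Hmox1 CPM per 1000 CPM of summed macrophage markers was therefore also computed, a measure chosen after seeing the data. Its lowest, median and highest values were 39.6, 46.8 and 60.7 in control mice, 47.3, 60.2 and 68.6 in 2-week mice, and 50.9, 71.2 and 87.7 in 6-week mice. The groups overlapped on this measure. The mean was 48.2 ± 7.20 in controls and 69.4 ± 12.1 at 6 weeks (exact permutation test, two-sided, P = 0.00433, adjusted over 3 comparisons 0.013), with 5 of 6 mice above every control. At 2 weeks it was 59.5 ± 8.73 (exact permutation test against controls, P = 0.0411, adjusted 0.0617), and between the time points P was 0.128 by the same exact permutation test (adjusted 0.128). The log2 ratios of the means were 0.30, 0.53 and 0.22 for 2 weeks, 6 weeks and 6 against 2 weeks. Each was smaller than the edgeR log2 fold change of Hmox1, which follows from dividing by a sum that rose. The sum weights abundant markers most (at 6 weeks Lyz2 averaged 217 of 501 CPM) and includes Cd163, which fell. At 6 weeks C1qa, Adgre1 and C1qb rose by 1.24, 1.26 and 1.29 on the log2 scale, near the 1.36 of Hmox1. Mrc1, Cd68 and Csf1r rose by 0.44, 0.75 and 0.77. The ratio and its P thus depend on the markers summed, and other sums were not tested. The part of macrophages in the level of Hmox1 was not tested.

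**Figure D2:**
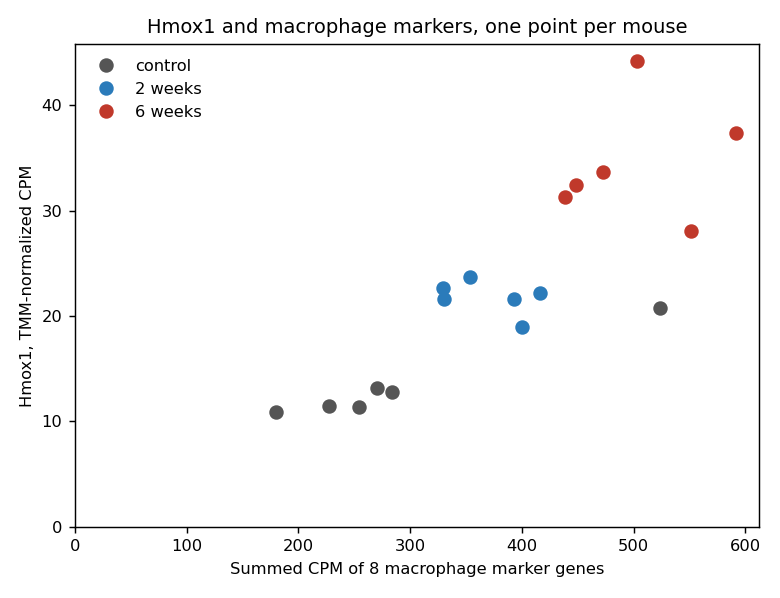
Hmox1 (vertical axis, TMM-normalized CPM) against the summed CPM of 8 macrophage markers (horizontal axis), with a point for each of the 18 mice coloured by group and both axes from 0. The control at 524 summed CPM lay within the range of the 6-week mice on the horizontal axis and below all of them on the vertical axis, with 20.7 CPM of Hmox1 against 28.1 to 44.1.

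Hmox1 had the smallest adjusted P of the 10 genes at 6 weeks, so the genes with the most similar pattern were listed for it. Over the 18 mice, log2 CPM of Hmox1 was closest to that of Dbn1 (Pearson r = 0.958), Slc15a3 (0.957) and Oas3 (0.954). With group means removed, the same r values were 0.686, 0.687 and 0.743. These are descriptions, and the mice share the group differences and the composition of their libraries.

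The glutathione-making enzyme has a catalytic subunit, Gclc (ENSMUSG00000032350, chromosome 9, 77754535 to 77794485, plus strand), and a modifier subunit, Gclm (ENSMUSG00000028124, chromosome 3, 122245557 to 122270732, plus strand), which together catalyze the limiting step of glutathione synthesis. Gclc ran from 9.08 to 13.1 CPM in controls, from 8.26 to 12.4 at 2 weeks and from 11.6 to 14.6 at 6 weeks. Gclm ran from 23.9 to 30.1, from 19.2 to 28.2 and from 24.6 to 30.9 CPM in the same groups. For neither gene did the groups separate. The log2 fold change of Gclc was −0.07 at 2 weeks (adjusted P = 0.789, SE 0.114) and 0.18 at 6 weeks (adjusted P = 0.275, SE 0.113). That of Gclm was −0.11 at 2 weeks (adjusted P = 0.526, SE 0.0889) and 0.07 at 6 weeks (adjusted P = 0.615, SE 0.0886). From 2 to 6 weeks the intervals of both lay above 0 (0.03 to 0.47 for Gclc, 0.01 to 0.35 for Gclm). Neither gene passed the test (adjusted P = 0.21 and 0.253). Before adjustment the edgeR P was 0.0410 for Gclc and 0.0569 for Gclm, so Gclm fell short of 0.05 although its interval excluded 0. On the deposited scale of transcript abundance, TPM, which corrects for transcript length, the ratio of Gclm to Gclc had a mean of 3.15 ± 0.979 for control mice, 2.94 ± 0.449 for 2-week mice and 2.60 ± 0.329 for 6-week mice (SD, n = 6), a difference within the spread of the controls. Gclm overlaps the processed pseudogene Gm6061 on its own strand, and reads of the pair could be divided between them.

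Srxn1 and Txnrd1 serve the thioredoxin arm. Srxn1 (ENSMUSG00000032802, chromosome 2, 152105516 to 152111376, plus strand), or sulfiredoxin, repairs overoxidized peroxiredoxins. It was scarce, with between 33 and 165 counts per mouse, and its CPM ran from 5.95 to 9.51 in controls, 2.30 to 8.16 at 2 weeks and 5.71 to 9.85 at 6 weeks. The 2 lowest of the 18 mice were 2-week mice, whereas the other 4 of that group sat among the controls. Its log2 fold change was −0.25 at 2 weeks (adjusted P = 0.596, SE 0.233) and −0.06 at 6 weeks (adjusted P = 0.878, SE 0.231).

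Txnrd1 (ENSMUSG00000020250, chromosome 10, 82833951 to 82897712, plus strand) encodes the cytosolic thioredoxin reductase, which passes electrons from NADPH to thioredoxin. It varied little, from 37.2 to 48.8 CPM in controls, 32.8 to 44.3 at 2 weeks and 39.8 to 50.1 at 6 weeks. Its log2 fold change was −0.11 at 2 weeks (adjusted P = 0.475, SE 0.0776) and 0.05 at 6 weeks (adjusted P = 0.702, SE 0.0775). The SE of Txnrd1 was the smallest of the 10 genes, and the 95% interval at 6 weeks ran from −0.10 to 0.20.

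Nqo1 (ENSMUSG00000003849, chromosome 8, 107388225 to 107403206, minus strand) encodes a quinone reductase and is a widely used reporter of NRF2 activity. Its lowest, median and highest CPM were 32.2, 50.8 and 63.4 in control mice, 31.5, 39.7 and 44.8 in 2-week mice, and 37.6, 46.8 and 57.5 in 6-week mice. Of the 2-week mice, 2 lay below every control and the other 4 inside the control range, which also held all 6-week mice. Nqo1 differed from controls by −0.37 on the log2 scale at 2 weeks (adjusted P = 0.191, SE 0.157, 95% interval −0.68 to −0.06) and −0.08 at 6 weeks (adjusted P = 0.761, SE 0.156, 95% interval −0.39 to 0.23).

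Gstm1 (ENSMUSG00000058135, chromosome 3, 108012255 to 108017973, minus strand), a mu-class glutathione transferase that joins glutathione to electrophiles, had the lowest, median and highest CPM of 163, 182 and 205 in controls. These were 135, 145 and 160 at 2 weeks and 111, 144 and 154 at 6 weeks. Every irradiated mouse lay below every control. The means were 183 ± 14.9, 147 ± 9.18 and 137 ± 19.4 CPM (SD, n = 6). Gstm1 fell by 0.32 on the log2 scale at 2 weeks (adjusted P = 0.0336, SE 0.0832) and by 0.41 at 6 weeks (adjusted P = 0.00126, SE 0.0833), and with library size in place of TMM or with TPM neither change passed. The log2 fold change from 2 to 6 weeks was −0.10 (adjusted P = 0.554, SE 0.0832), and it was above 0 in those alternatives. The 2-week call was also lost without control replicate 3, 5 or 6, or without replicate 1, 2, 3, 5 or 6 of the 2-week group (edgeR adjusted P from 0.0504 to 0.0817, log2 fold change from −0.28 to −0.33). Mu-class paralogs are close in sequence, so the division of reads between Gstm1 and its relatives is uncertain.

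Of 8 cardiomyocyte markers, 1 fell at 2 weeks and 6 fell at 6 weeks on the TMM scale, 0 and 1 fell by library size, and 0 and 1 with log2(TPM + 1). The share of mitochondrial counts was lower as given above. The part of this in the result for Gstm1 was not tested. Among the 18 mice, with group means removed, the Pearson r between Gstm1 and the mitochondrial share was 0.30, a description across mice that share these library compositions.

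Gsta3 (ENSMUSG00000025934, chromosome 1, 21240589 to 21265661, plus strand), an alpha-class glutathione transferase, was the most variable of the 10 genes in controls and at 6 weeks, with a coefficient of variation of 44.0% and 64.1%. It had 24 to 169 counts per mouse. Its lowest, median and highest CPM were 3.78, 7.27 and 11.01 in control mice, 3.53, 4.88 and 8.37 in 2-week mice, and 1.81, 4.78 and 11.7 in 6-week mice. The groups overlapped throughout, and both the lowest and the highest mouse of all 18 were in the 6-week group. As a log2 fold change, Gsta3 stood at −0.41 at 2 weeks (adjusted P = 0.566, SE 0.359) and −0.41 at 6 weeks (adjusted P = 0.45, SE 0.360), and the 95% interval at 6 weeks ran from −1.11 to 0.30. The 6-week mouse with 11.7 CPM, replicate 2, also had the highest summed CPM of 6 adipocyte markers (42.5, against 1.70 to 42.5 over the group, 2.55 to 30.6 at 2 weeks and 3.33 to 19.2 in controls). Of those markers 5 were abundant enough to test and did not pass in any comparison, and Lep was at 0 in at least 1 mouse of each group. Their part in the level of Gsta3 was not tested.

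Gpx3 (ENSMUSG00000018339, chromosome 11, 54902453 to 54910377, plus strand) encodes the secreted glutathione peroxidase of plasma. Its lowest, median and highest CPM were 222, 298 and 488 in control mice, 207, 250 and 451 in 2-week mice, and 263, 356 and 455 in 6-week mice. A single mouse set the top of each of the first 2 groups: control replicate 4 with 488 (next 317) and 2-week replicate 5 with 451 (next 263). The log2 fold change was −0.21 at 2 weeks (adjusted P = 0.602, SE 0.199), 0.17 at 6 weeks (adjusted P = 0.588, SE 0.199) and 0.38 from 2 to 6 weeks (adjusted P = 0.291, SE 0.199). Without control replicate 4 it was −0.04 at 2 weeks and 0.34 at 6 weeks, and without 2-week replicate 5 it was −0.41 at 2 weeks and 0.58 from 2 to 6 weeks (edgeR adjusted P = 0.0641).

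Of these mice, 2-week replicate 5 also stood apart in markers of atrial myocytes, which should be scarce in the septum. Its summed CPM of the 4 atrial markers was 583, the highest of a 2-week group that began at 0.661 and had a median of 43.4 (next 80.8). Control replicate 4 did not stand apart, with 131 in a control range of 2.41 to 131 around a median of 91.1, and 6-week mice ran from 1.19 to 131 around 24.8. Of the list, 3 markers were tested and did not pass in any comparison, and Bmp10 was at 0 in every 6-week mouse. Their part in the level of Gpx3 was not tested.

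**Figure D3:**
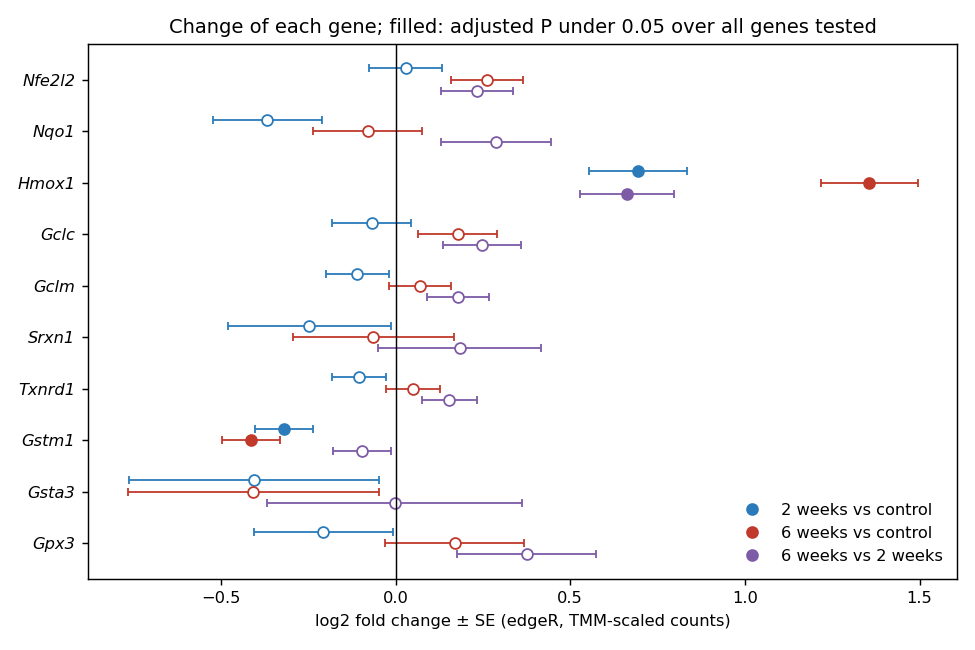
Log2 fold change of each of the 10 genes with its SE (horizontal axis, edgeR on TMM-scaled counts) in the 3 comparisons, with filled points where the adjusted P over all genes tested was under 0.05. Hmox1 is filled in each comparison (0.69, 1.36 and 0.66) and Gstm1 in both comparisons with controls (−0.32 and −0.41 on this scaling), and the wide bars belong to Gsta3 and Srxn1.

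Levels can be compared between genes only per length. In controls, mean TPM was highest for Gpx3 (205.6 ± 74.2) and Gstm1 (168 ± 18.5), whose ranges overlapped. Nqo1 (34.3 ± 10.5) and Nfe2l2 (22.7 ± 4.17) followed, again with overlapping ranges, below every value of the first pair and above every value of the genes after them. Txnrd1 (12.6 ± 1.61), Gclm (10.5 ± 2.29), Hmox1 (9.51 ± 3.34) and Gsta3 (6.75 ± 3.06) came next, and Srxn1 (4.16 ± 1.55) and Gclc (3.45 ± 0.738) were the lowest. From Txnrd1 down, each gene overlapped its neighbours in this order, but each control had more Gclm than the highest Gclc value of any control. Hmox1 averaged 17.9 ± 1.54 TPM at 2 weeks and 31.7 ± 6.66 at 6 weeks. At 6 weeks its lowest mouse (23.5 TPM) lay above the highest for Txnrd1 (20.5), whose mean had been above that of Hmox1 in controls.

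The scaling mattered for the small differences. TMM sets the bulk of genes equal between groups, whereas scaling by library size left the median of all genes at 0.24 and log2(TPM + 1) left it at 0.29 at 6 weeks. By library size, 5 of 10 genes passed at 6 weeks, each as higher: Hmox1 (1.61), Nfe2l2 (0.52, adjusted P = 0.00178), Gclc (0.44, adjusted P = 0.00861), Gclm (0.33, adjusted P = 0.0166) and Txnrd1 (0.31, adjusted P = 0.00576). With TPM, limma called the same 5 genes and Gpx3 (0.58, adjusted P = 0.0352). Over all genes, 5494 were then higher and 326 lower by library size, and 7354 higher and 118 lower with TPM, so the rises of these genes stood among rises of much of the transcriptome. Relative to the median of all genes, the change of Nfe2l2 at 6 weeks was 0.28, 0.28 and 0.37 by TMM, library size and TPM. That of Hmox1 was 1.38, 1.37 and 1.38.

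The calls of Gstm1 depended on the scaling. Its log2 fold change at 6 weeks was −0.15 by library size (adjusted P = 0.127) and −0.02 with TPM (limma adjusted P = 0.85), and mean TPM was 168 in controls, 160 at 2 weeks and 166 at 6 weeks. Relative to the median of all genes it was −0.40 and −0.31 by these scalings and −0.40 by TMM. Gstm1 thus lay below the median change of all genes under these 3 scalings, while its own TPM level moved by less than the SD of the controls (18.5).

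**Figure D4:**
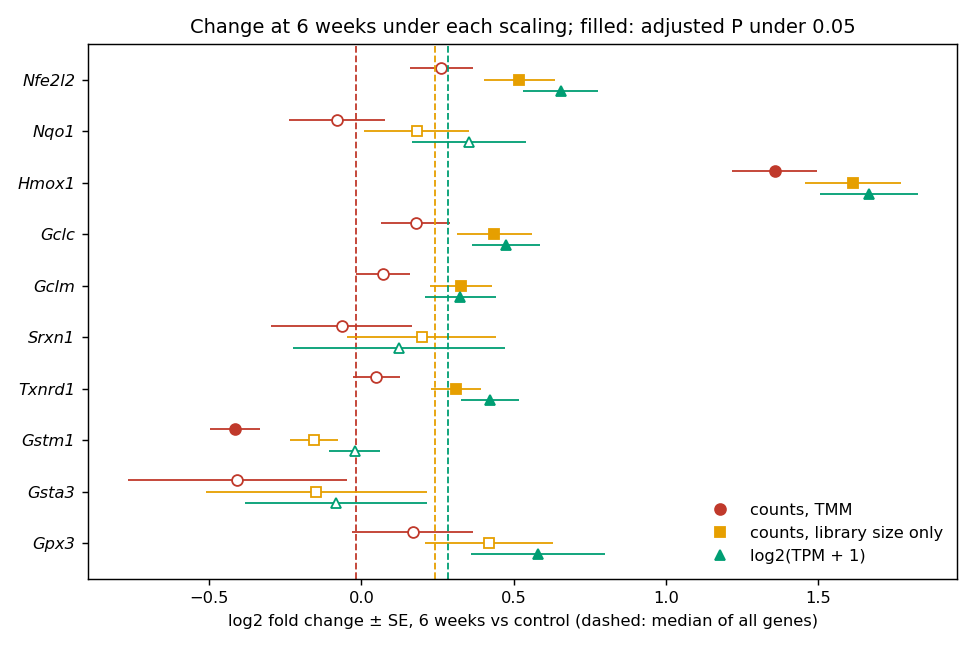
Log2 fold change with SE at 6 weeks against controls (horizontal axis) for each of the 10 genes under TMM, under library size alone and as log2(TPM + 1), with filled symbols where the adjusted P was under 0.05 and dashed lines at the median of all genes for each scaling. The medians of all genes moved from −0.02 to 0.24 and 0.29 and the genes moved along with them, so that Gstm1 is filled under TMM alone and Hmox1 under all 3.

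Pairs of members were also correlated among mice of a group, without pairs of other genes for comparison. With group means removed, Pearson r over the 18 mice ran from −0.33 to 0.56 over the 45 pairs of genes, with a median of 0.25 and 35 pairs above 0. No pair passed after adjustment over the 45 pairs (permutation within groups, 0 pairs), and 4 pairs had an unadjusted P under 0.05 for r and 2 for Spearman's rho. The closest pair was Nfe2l2 with Gpx3 (r = 0.56, permutation P = 0.0227, adjusted 0.479, and rho = 0.616, permutation P = 0.0128, adjusted 0.502), with r = 0.52 without the 2 mice farthest from the median. Gclc and Gclm, the subunits of a single enzyme, had r = 0.49 (permutation P = 0.0649, adjusted 0.479) and rho = 0.445 (permutation P = 0.0842, adjusted 0.502). Without the 2 mice farthest from the median of Gclc r was 0.187, so that relation depended in part on those mice. By group, r was 0.01 in controls, 0.77 at 2 weeks and 0.72 at 6 weeks, each from 6 mice and not tested.

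The pathway around these genes was described with 124 further genes in 10 lists, of which 117 were abundant enough to test. At 2 weeks 5 were higher (4.27%, against 3.09% of all genes tested) and 10 lower (8.55%, against 1.93%), with a median log2 fold change of −0.10. At 6 weeks 17 were higher (14.5%, against 13.5%) and 32 lower (27.4%, against 11.5%), with a median of −0.14. These counts moved with the scaling at both times, and so did those of all 15054 genes tested. By library size 7 were higher and 3 lower at 2 weeks, against 1707 and 82 of all genes. At 6 weeks 34 were higher and 5 lower, against 5494 and 326. With log2(TPM + 1) the counts were 17 and 3 at 2 weeks, against 2774 and 39 of all genes. At 6 weeks they were 48 and 2, against 7354 and 118. From 2 to 6 weeks 8 were higher (6.84%, against 3.31% of all genes) and 2 lower (1.71%, against 2.01%). By library size 17 and 0 passed, against 1098 and 104 of all genes. Leaving out 1 mouse moved the TMM count of 10 to between 2 and 6 for each 2-week mouse and for 6-week replicates 1, 3 and 6. It moved to 16 for control replicate 4 or 6-week replicate 4. The 2-week count was between 7 and 9 without control replicate 2, 3, 5 or 6 or without 2-week replicate 1, 2, 3, 5 or 6, against 15.

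Among 14 partners and regulators of NRF2, 2 rose, 1 fell and 11 did not pass at 6 weeks. Maff, a small MAF protein with which NRF2 pairs, rose from 6.91 ± 2.17 to 13.5 ± 3.31 CPM (log2 fold change 0.96, SE 0.180, adjusted P = 0.00072), and Mafk, another, rose by 0.30 (adjusted P = 0.0114). Cul3, the ubiquitin ligase scaffold that works with KEAP1, fell by 0.21 on the log2 scale (adjusted P = 0.00482), but by library size it was 0.05 (adjusted P = 0.486), and with log2(TPM + 1) it passed as higher (0.19, limma adjusted P = 0.0163). Of 8 genes that supply NADPH, G6pdx, the entry enzyme of the pentose phosphate pathway, rose by 0.47 (adjusted P = 0.0146), and 3 fell, among them the mitochondrial genes Idh2 (−0.52, adjusted P = 0.00576) and Nnt (−0.43, adjusted P = 0.00591). The calls of Idh2 and Nnt were lost by library size.

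Glutathione synthesis, recycling and breakdown had 12 tested genes, of which 3 rose and 3 fell at 6 weeks. Chac1, which degrades glutathione, rose by 0.81 (adjusted P = 0.00419, SE 0.191) from 1.70 ± 0.480 to 3.04 ± 0.643 CPM. Slc3a2, the heavy chain of the cystine transporter, rose by 0.25 (adjusted P = 0.0307), a call lost without control replicate 1 or 6 or 6-week replicate 5 or 6. Slc7a11, the light chain of that transporter and a known NRF2 target, also passed (adjusted P = 0.0301) but was near the floor, with 0 to 6 counts in controls and 1 to 14 at 6 weeks, and the call was lost on leaving out each of 7 mice in turn.

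On the TMM scale, 12 of 19 glutathione transferases fell and the other 7 did not pass at 6 weeks, with a median log2 fold change of −0.53, and 4 fell at 2 weeks. By library size 5 fell and 1 rose at 6 weeks, and with TPM 2 fell and 1 rose. Gsta4, which handles the lipid peroxidation product hydroxynonenal, went from 37.4 ± 7.58 to 22.9 ± 3.95 CPM at 6 weeks (log2 fold change −0.71, adjusted P = 0.000386) and passed under each scaling (−0.44 by library size, −0.30 with TPM). Gstm7 changed by −0.57 (adjusted P = 0.000369) and Mgst3 by −0.47 (adjusted P = 0.000803), and neither passed with TPM. Mgst3 was already lower at 2 weeks (−0.50, adjusted P = 0.00393). Relatives within each class share sequence, and the division of their reads is uncertain. Gstm1 (−0.41) thus lay close to the median of this family.

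Among 8 glutathione peroxidases and glutaredoxins, the cytosolic peroxidase Gpx1 rose by 0.40 at 6 weeks (adjusted P = 0.0051) and 2 fell on the TMM scale, Glrx5 (−0.38, adjusted P = 0.00227) and Gpx4, the peroxidase of membrane lipids (−0.27, adjusted P = 0.00632). With TPM both were above 0 (0.02 and 0.12). At 2 weeks Gpx4 fell by 0.47 (adjusted P = 0.000687), from 517 ± 35.1 to 374 ± 25.3 CPM, and this call held by library size and with TPM.

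In the thioredoxin and peroxiredoxin system 6 of 15 fell and 1 rose at 6 weeks on the TMM scale, whereas by library size 2 rose and the others did not pass. Prdx6 (−0.42, adjusted P = 0.000114), mitochondrial Txn2 (−0.32, adjusted P = 0.000463) and Txnrd3 (−0.49, adjusted P = 0.00115) had the smallest adjusted P. Txn2 was above 0 with TPM (0.08). Of 5 dismutases and catalase, mitochondrial Sod2 changed by −0.51 at 6 weeks (adjusted P = 0.00766), which was lost by library size. Cat changed by −0.65 at 2 weeks (adjusted P = 0.0462), a call lost in 23 of 32 alternatives, and Prdx1 by −0.47 (adjusted P = 0.0295), lost in 9 of 32.

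Around Hmox1, 11 genes of heme and iron handling were tested, of which 1 rose and 3 fell at 6 weeks. Ftl1, the ferritin light chain that stores iron and a known NRF2 target, rose by 0.38 (adjusted P = 0.00134, SE 0.0775), from 358 ± 37.8 to 467 ± 35.5 CPM. Fech, which completes heme synthesis, changed by −0.43 (adjusted P = 0.0118) and Tfrc, the transferrin receptor, by −0.83 (adjusted P = 0.0376), and both calls were lost by library size. Tfrc is also abundant in immature red cells, and the summed CPM of 5 red blood cell markers ran from 45.8 to 1119 in controls and from 40.3 to 108 at 6 weeks. Their part in Tfrc and in Hmox1 was not tested.

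Among 17 phase II enzymes and efflux pumps, a list of several gene families, 3 rose and 1 fell at 6 weeks. Akr1b8, an aldo-keto reductase, rose from 2.43 ± 1.09 to 4.97 ± 0.889 CPM (log2 fold change 1.005, adjusted P = 0.00353), and Abcc3, an exporter of glutathione and glucuronide conjugates, rose by 0.92 (adjusted P = 0.00277). Ephx1, microsomal epoxide hydrolase, rose at both times, by 0.75 at 2 weeks (adjusted P = 0.00885) and 0.72 at 6 weeks (adjusted P = 0.00175). The list of NADPH oxidase subunits held those of the superoxide source of phagocytes, and also Nox4 and Noxo1, which belong to other oxidases. In it 3 of 8 rose at 2 weeks and 5 of 8 at 6 weeks, with a median of 1.25. Nox4 and Noxo1 did not pass at either time. Ncf4 rose by 2.18 (adjusted P = 5.91e-05), from 0.396 ± 0.339 to 1.90 ± 0.227 CPM, Ncf1 by 1.43 (adjusted P = 1.28e-05) and Cyba by 0.42 (adjusted P = 5.91e-05), and each also rose at 2 weeks. In controls Ncf4 was near the floor, with 1 to 15 counts, so the size of its change is uncertain. The macrophage marker sums given beside Hmox1 moved in the same direction, and their part in the levels of these subunits was not tested.

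**Figure D5:**
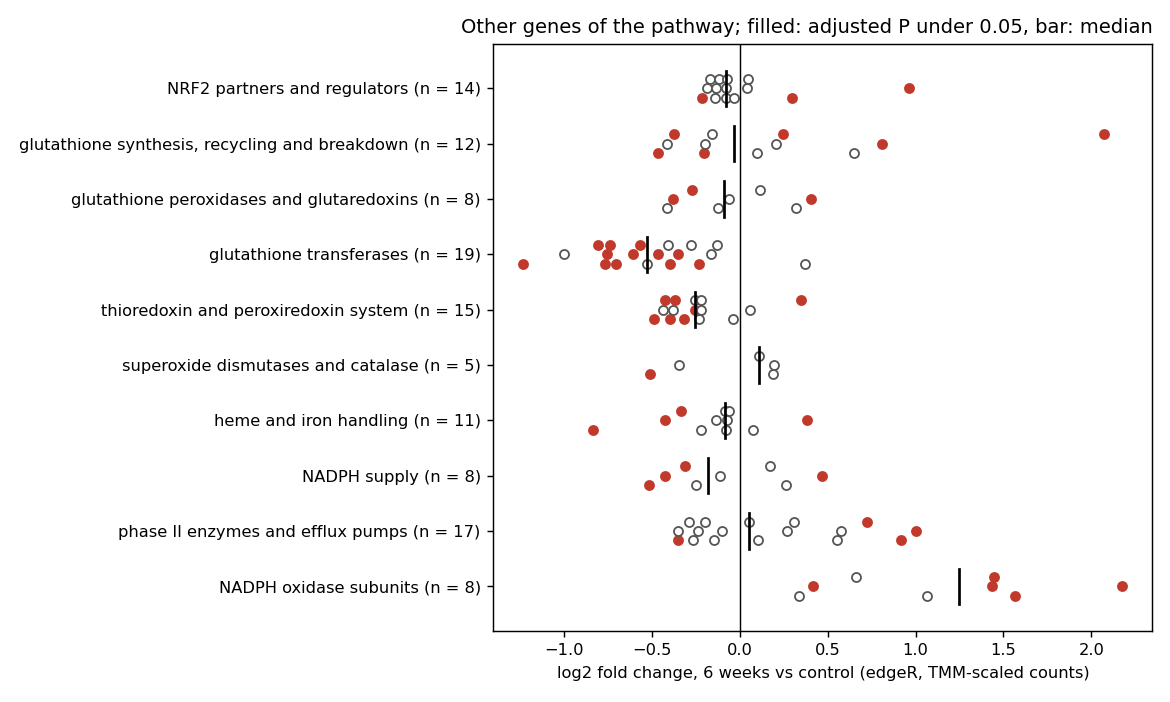
Log2 fold change at 6 weeks against controls (horizontal axis, edgeR on TMM-scaled counts) of the 117 tested genes in 10 lists around the 10 NRF2 genes, with a point per gene, filled where the adjusted P was under 0.05, and a bar at each list's median. The glutathione transferases lie mostly below 0 (12 of 19 filled, 5 by library size) and the NADPH oxidase subunits above 0 (5 of 8 filled). The point at the far right of the glutathione synthesis list is Slc7a11, with at most 14 counts in a 6-week mouse.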

How the data were processed

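RNA of 18 mice was sequenced (KAPA HyperPrep libraries, paired reads). The authors aligned reads to GRCm38 with STAR, quantified transcripts with Salmon 1.0, summed them to genes with tximport and deposited estimated counts without normalization between mice. The authors also deposited TPM, a transcript abundance that is corrected for length and sums to a fixed total in each mouse. Submitters' processing notes also list CASAVA 1.8. Counts were rounded, filtered at 0.23 CPM in at least 6 mice and tested with edgeR 4.0.16 in R 4.3.3 (TMM, quasi-likelihood, 1 fit of 3 groups, two-sided). The SE is the absolute log2 fold change divided by the square root of F, and 95% intervals are 1.96 SE either side. The code was tested on simulated counts. Floors cover counting error only. Members and gene lists were chosen with earlier results of these data known. Named pathway genes were, per list, up to 3 with the smallest adjusted P at 6 weeks and 1 at 2 weeks, and for Hmox1 the 3 genes closest in pattern. Alternatives covered DESeq2 1.42.0, limma 3.58.1 (voom, TPM with pseudocounts of 1 and 0.1), scaling, filters, thresholds, Y-linked expression as a covariate, the replicate block and leaving out each mouse. Symbols and coordinates came from GENCODE M21 (29301 genes, 771 without a symbol), the authors' annotation being another release.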

Additional observations from a re-analysis of the deposited data

Results flagged for a closer look

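In 30 groups of 6 mice (10 genes in 3 groups), 5 had a single mouse farther from the rest than Dixon's 95% criterion allows, where chance alone gives about 1 in 20 groups. Hmox1 had 20.75 CPM in control replicate 4, with 13.1 in the next control. Gpx3 had 488.5 CPM in the same mouse, with 317 in the next, and 451 CPM in 2-week replicate 5, with 263 in the next. Gclc had 14.64 CPM in 6-week replicate 5, with 12.7 in the next. Txnrd1 had 32.76 CPM in 2-week replicate 3, with 40.2 in the next lowest. Hmox1 also changed differently at the 2 time points: the log2 fold change against controls was larger at 6 weeks than at 2 weeks by 0.66 (edgeR adjusted P = 0.0111), and all 6 of the 6-week mice lay above all 2-week mice.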

How the results depend on the processing

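Hmox1 kept its direction and its call in each comparison under all 32 alternatives fixed beforehand (log2 fold change 0.65 to 0.96 at 2 weeks, 1.28 to 1.76 at 6 weeks and 0.58 to 0.80 between them). Gstm1 lost its call at 6 weeks in 3 of 32 and at 2 weeks in 11 of 32, the latter including 8 mice left out in turn. Over the 30 log2 fold changes of the 10 genes, 894 of the values under alternatives kept direction and side of the threshold, 15 gained a call, 14 lost one and 37 changed sign. Of 38 calls of named pathway genes, 19 held throughout. At 6 weeks all 14 higher calls held by library size and with TPM, and of 14 lower calls 3 and 1 did. Both scalings raise the median of all genes (to 0.24 and 0.29 at 6 weeks). They thus favour calls as higher over calls as lower, so this contrast does not show which calls are firmer. Counts near the floor limit Slc7a11 and, in controls, Ncf4. Low counts above the floor limit Chac1, Gsta3 and Srxn1.

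Members called at 2 weeks (2) were 1 by library size, 1 with log2(TPM + 1), 1 with log2(TPM + 0.1), 0 under the study's fold-change rule and 1 to 2 without each mouse. At 6 weeks (2) they were 5, 6, 6 and 1 in that order and 2 to 3 without each mouse, and between the time points (1) they were 0 under the fold-change rule. Pathway genes called at 2 weeks (15) were 9 with no filter, 23 at an adjusted P under 0.10, 2 under the fold-change rule and 7 to 17 without each mouse. At 6 weeks (49) they were 7 under the fold-change rule. Between the time points (10) they were 16 with DESeq2, 19 with voom and quality weights, 17 by library size, 6 with no filter, 17 with log2(TPM + 1), 6 with the replicate block, 20 with only the groups compared, 22 at an adjusted P under 0.10, 0 under the fold-change rule and 2 to 16 without each mouse. Mice that moved this last count by over 1.5 times were control 4 and 6-week 4 (16 each), all 2-week mice (2 to 6) and 6-week 1, 3 and 6 (2 to 5).

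Signs that changed belonged to values of members that did not pass. At 2 weeks, library size, log2(TPM + 1) and log2(TPM + 0.1) gave 0.045, 0.127 and 0.136 for Txnrd1, 0.0389, 0.103 and 0.114 for Gclm and 0.0805, 0.14 and 0.175 for Gclc, and the TPM forms gave 0.027 and 0.0272 for Gpx3. Nfe2l2 at 2 weeks ran from −0.0263 to 0.0756 without each mouse. At 6 weeks, Nqo1 was 0.0447 with voom and quality weights, 0.182, 0.354 and 0.364 under those 3 settings and −0.176 to 0.0022 without each mouse. Srxn1 was 0.198, 0.124 and 0.143 and −0.167 to 0.0039. Between the time points, Gsta3 was 0.0076 with DESeq2, 0.000995 with the earlier edgeR form, 0.108, 0.0477 and 0.03995 under those settings and −0.382 to 0.176 without each mouse, and Gstm1 was 0.012, 0.0461 and 0.0463. Among pathway genes at 6 weeks, Cul3 was 0.0485, 0.194 and 0.199 (passing as higher with both TPM forms), and with the TPM forms Glrx5 was 0.0198 and 0.0201, Gpx4 0.125 and 0.125 and Txn2 0.0838 and 0.0843. Prdx6 at 2 weeks was 0.0379 and 0.0384. Library size and TPM raise the median of all genes, as given above; the cause of other changes was not tested.

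With the replicate number as a block, members called were 2, 2 and 1 in the 3 comparisons, and pathway genes 12, 46 and 6. Deviations of same-numbered mice had r from −0.0828 to 0.106 (median 0.0333, 2 of 18 pairs over 0.1), against a median of −0.0154 for other numbers. Of 18 mice, 3 correlated best with their own number. These values are small, but they cannot decide whether the numbers mark litters or batches, which the labels do not say.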
